A study of Mus musculus with 18 samples.

Results

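A set of 10 transcription factors known for their roles in bone and cartilage development was followed in mouse tail tendon fibroblasts (TFs): the Runt factors *Runx1* and *Runx2*, the Sox factors *Sox9*, *Sox5* and *Sox6*, the homeobox factors *Dlx5*, *Msx1* and *Msx2*, and the zinc finger factors *Osr1* and *Osr2*. They were taken by gene symbol, and all 10 were found among the 55487 mouse genes of the count table. Poly-A transcripts were sequenced from 6 groups with 3 libraries each, 18 in all, after 4 days of culture in 20% or 1% O2. Ctrl TFs carry the genotype label wild-type and came, by the study's methods, from Cre-negative mice of a colony with floxed *Hif1a*. The cKO TFs carry floxed *Hif1a* on both alleles and *ScxCre*, so that the promoter of the tendon gene *Scx* drives Cre and deletion is limited to cells that have used it. A further pair of groups were Ctrl TFs treated with Cre gesicles, vesicles that bring the recombinase into cultured cells. All TFs came from tails of male and female mice of 4 to 6 months, crawled out of tendon into collagen gel and were passaged on plastic, so that every group is a cultured fibroblast population. The methods give n = 3 mice for the Ctrl and cKO cultures. For parallel cultures they name 3 biological replicates per genotype, 1 male and 2 female for Ctrl and 2 male and 1 female for cKO. The labels tie no library to a mouse, so p-values measure the spread between these libraries.

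*Sox9* starts the cartilage program, and *Sox5* and *Sox6* act with it on cartilage matrix genes. *Runx2* is required for osteoblasts and for hypertrophic cartilage, *Runx1* is best known in blood and is also made in early skeletal cells, and both bind DNA with the shared partner *Cbfb*. *Dlx5*, *Msx1* and *Msx2* pattern the skeleton and regulate osteoblast genes, with Msx proteins mostly acting as repressors. *Osr1* and *Osr2* mark embryonic connective tissue and developing joints. Cells of the tendon-bone attachment arise from progenitors that express *Scx* together with *Sox9*. For the pool shared with tendon the paper names *Scx* alone.

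HIF-1, the factor of which *Hif1a* encodes the O2-regulated subunit, binds ACGTG or GCGTG, and Runt factors bind TGTGGTT. Both were searched on both strands in the 250 bases before each transcript start in the RefSeq promoter table of GRCm38.p6, which holds 12 windows for 6 of the 10 genes (*Runx1*, *Runx2*, *Sox5*, *Sox6*, *Msx1* and *Msx2*). Either HIF-1 core was present in 5 of these windows, from 4 genes, at 7 sites, and in 38.6% of all 32851 promoter windows (ACGTG in 16.6%, GCGTG in 28.2%). The Runt motif was found at 1 site, before *Runx2*, and in 4.4% of all windows. The *Msx2* window held none of these letters. The stretches of 30 bases below, all on the minus strand and read 5′ to 3′, are shown because *Hif1a* deletion and low O2 are what the study varied and because *Runx2* was among the factors whose genotypes did not overlap. Capitals mark the motif as read on this strand, and a match describes the sequence only.
*Runx1*, outer start, chr16:92826128-92826157: catcacttaagtCACGTGattggcaagagc
*Runx1*, inner start, chr16:92697545-92697574: ggtgcggggtcgGCGTGggtgcgggagctg
*Runx1*, inner start, chr16:92697331-92697360: ttacagtaaaagCACGTtcatttccaggca
*Runx2*, Runt motif, chr17:44814690-44814719: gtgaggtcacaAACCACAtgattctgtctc
*Sox5*, chr6:143947283-143947312: ttgctaaagatcGCGTGtatatatttcagt
*Sox6*, outermost start, chr7:116038864-116038893: gactctgatgtgACGTGtagattttttttt
*Sox6*, outermost start, chr7:116038750-116038779: gacgggcactccCACGCctcctcccttcgg
*Msx1*, chr5:37824610-37824639: attggccgctgcCACGCtggccttgcctta
The outer *Runx1* site reads CACGTG, in which ACGTG lies on both strands in overlap. In the GENCODE M21 annotation the *Msx1* stretch and the first *Sox6* stretch lie outside the gene. The inner *Runx1* stretches and the *Sox5* stretch are intronic, the *Runx2* stretch and the second *Sox6* stretch lie in annotated exons, and the outer *Runx1* stretch has 22 of its 30 bases in an exon.

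Library totals ran from 6857558 (cKO in 1% O2, replicate 1) to 51806451 estimated counts, and the other 17 libraries held at least 26967437. A floor of 3 counts corresponds to 0.0579 to 0.437 CPM, which covers counting error only. *Hif1a* itself was at 294 to 503 CPM in every library and was not lower in cKO TFs (log2 fold change 0.11 in 20% O2 and 0.08 in 1% O2). These counts take in the whole gene and do not check the deletion of a part of it. Of 8 hypoxia response genes, 7 rose in 1% O2 in Ctrl TFs, 7 in cKO TFs and 7 in gesicle-treated TFs (*Slc2a1* in the first 2 arms only and *Car9* in the last only), with *Ldha*, which makes lactate, the most abundant. Read by *Xist*, 1 replicate number was male and 2 were female among Ctrl and among gesicle-treated TFs, while cKO TFs had 2 male numbers and 1 female number, and each number had 1 sex at both O2 levels, so that no arm came from 1 mouse alone. Tendon markers were present, led by *Col1a1* at 4076 CPM, and *Scx* was at 6.19 CPM or more in every library. Keratinocyte markers summed to 0.498 CPM or less.

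All 10 factors passed the filter on low counts, and their levels spanned a wide range. Per kb of exon (normalized CPM divided by the length of all annotated exons, mean ± SD over 18 libraries), *Osr1* was highest at 26.3 ± 6.18 and *Sox9* followed at 7.66 ± 1.91. Every library had more *Osr1* than any library had *Sox9*, and more *Sox9* than any had *Msx2*, while *Osr2* in cKO replicate 1 in 20% O2 (5.68) was above the lowest *Sox9* libraries (4.98). A middle group of overlapping genes held *Msx2* at 2.31 ± 0.656, *Osr2* at 2.09 ± 1.37, *Runx1* at 1.95 ± 0.596, *Msx1* at 1.94 ± 0.321 and *Runx2* at 1.84 ± 0.477. Neighbours in this middle order did not differ beyond their spread. *Dlx5* was lower at 0.485 ± 0.28, below every library's *Runx2*, and overlapped *Sox6* at 0.191 ± 0.0534. *Sox5* was lowest at 0.0397 ± 0.0147, from 7 to 35 counts per library, so that the usual partners of *Sox9* in cartilage were both far below it. The exon lengths of *Runx1*, *Sox5* and *Sox6* (12025, 14376 and 14832 bases) join many transcripts, which lowers their values on this scale.

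**Figure D1:**
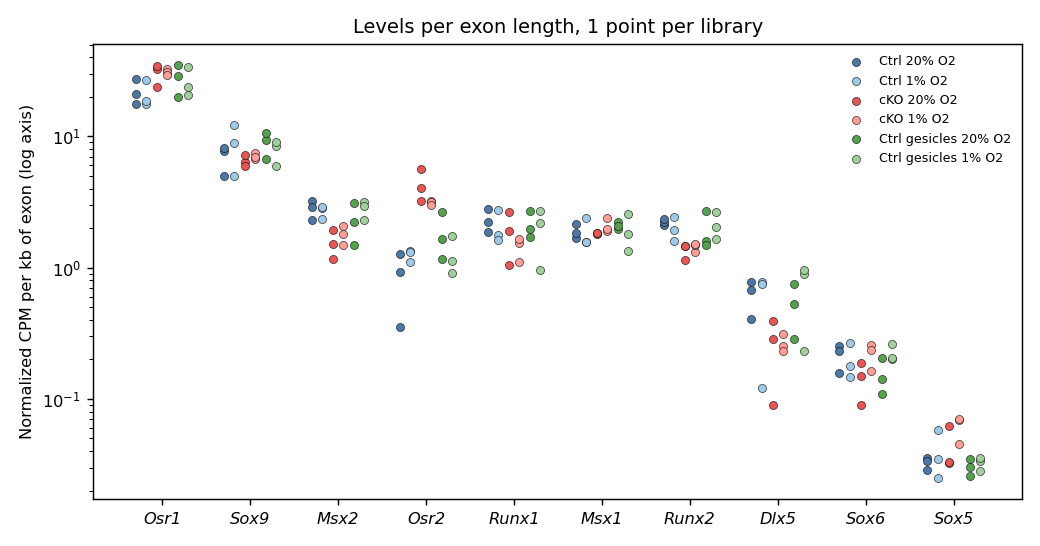
Normalized CPM per kb of exon (log axis) of the 10 factors, 1 point per library, coloured by group and ordered by the mean over 18 libraries. *Osr1* (mean 26.3) stands above all others and *Sox5* (0.0397) below, while the highest *Osr2* point (5.68) lies within the range of *Sox9* (mean 7.66).

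The factors also differed in how steady they were across libraries. *Osr2* had the largest coefficient of variation (65.5%), with a 16-fold range from 1.29 to 20.6 CPM, and *Dlx5* was next (57.8%). *Msx1* was the steadiest (16.6%, from 4.14 to 7.97 CPM). The plot of CPM by library shows where this spread lies: for *Osr2* the 6 cKO libraries sit above all 12 others. The share of all genes that separate in this way is not given, and libraries at both O2 levels may come from the same mice.

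**Figure D2:**
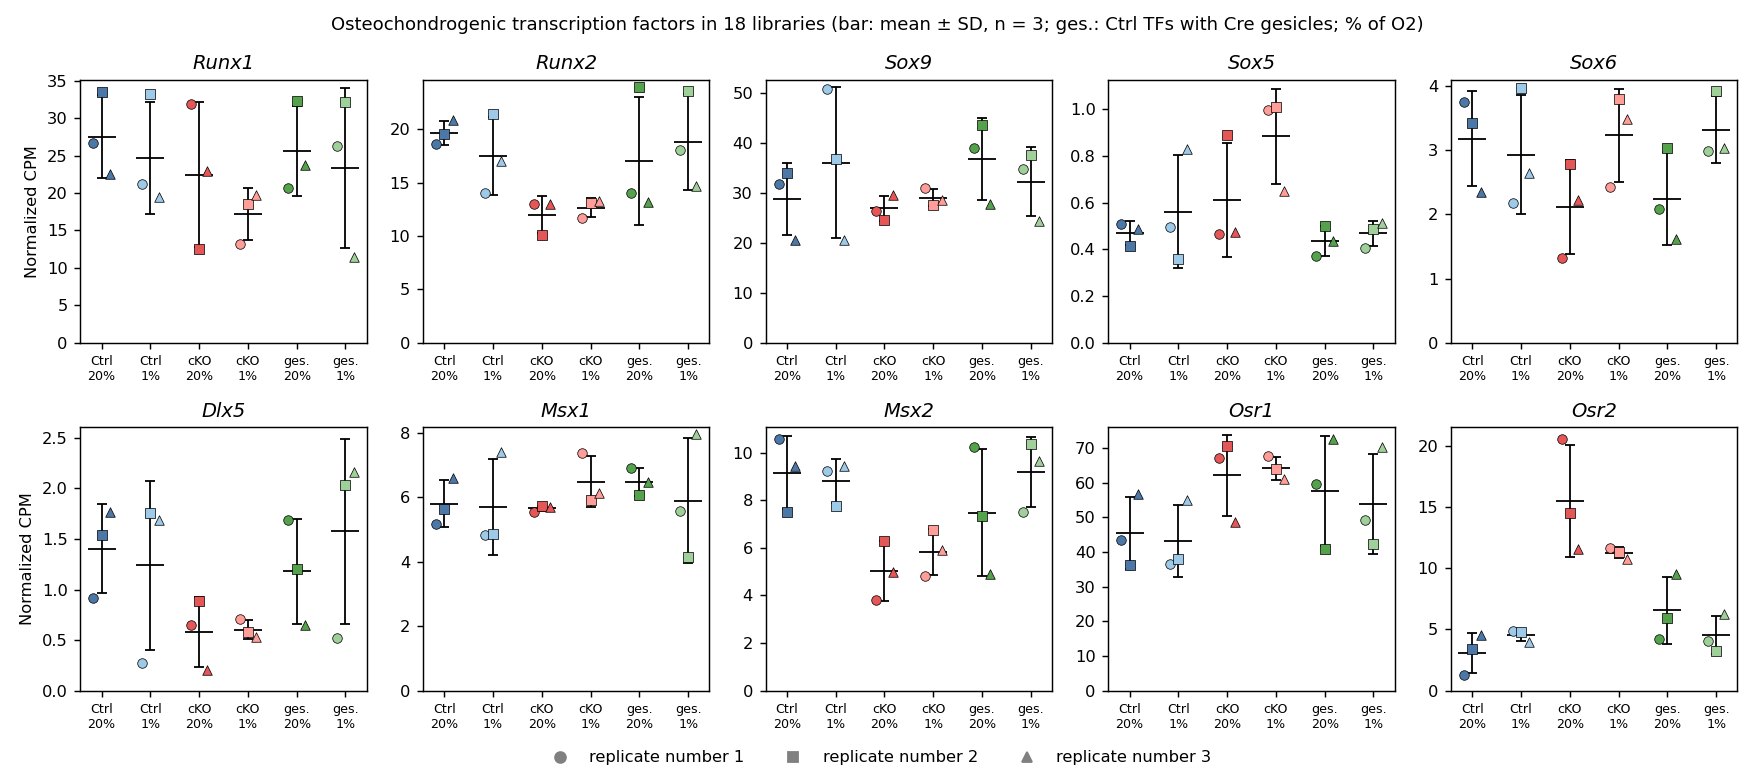
Normalized CPM (y axis, from 0) of each factor in the 6 groups (x axis), with 1 point per library, shapes for the replicate number, and bars for the mean ± SD of 3 libraries. *Osr2* is at 10.8 to 20.6 CPM in the 6 cKO libraries and at 1.29 to 9.54 CPM in the other 12.

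The first question was whether TFs from cKO mice differ from Ctrl TFs in these factors. *Osr2* (ENSMUSG00000022330, chr15:35296098-35303305 of GRCm38, plus strand) was the one factor that passed the test, and it was higher in cKO TFs in 20% O2. Normalized CPM of *Osr2* in 20% O2 was 1.29, 3.37 and 4.56 in Ctrl TFs and 20.6, 14.5 and 11.6 in cKO TFs. The lowest cKO library was thus above the highest Ctrl library. The log2 fold change was 2.33 (95% interval 1.54 to 3.13, adjusted p = 0.0233 by edgeR's quasi-likelihood test over 15850 genes). With 1 of 10 factors called higher, the background was 0.145% of genes called higher and 0.347% called in either direction. At an unadjusted p under 0.05 with the fold change, 3 of 10 factors (*Osr2*, *Runx2* and *Msx2*) stood beside 8.53% of genes. The call rests on few libraries: it was lost without Ctrl replicate 1 (adjusted p = 0.0566 by edgeR), Ctrl replicate 2 (0.0569), cKO replicate 2 (0.0533) or cKO replicate 3 (0.077), while the log2 fold change stayed between 1.96 and 2.73. A fit of just these 6 libraries also lost it (adjusted p = 0.149 by edgeR), and with sex as a factor, an alternative chosen after the data were seen, it was 2.54 (adjusted p = 0.0143 by edgeR).

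In 1% O2 *Osr2* was again without overlap. It was at 4.86, 4.8 and 3.96 CPM in Ctrl TFs and at 11.7, 11.4 and 10.8 CPM in cKO TFs. The log2 fold change of 1.31 (95% interval 0.53 to 2.08) did not pass the test (adjusted p = 0.204 by edgeR), and DESeq2 called it (1.32, adjusted p = 0.0193). None of the 10 factors was called in 1% O2 by edgeR, against 0.0379% of genes. DESeq2 called 1, and 1 had an unadjusted p under 0.05 with the fold change (9.77% of genes). When counts of the same replicate number were summed over both O2 levels, *Osr2* was called higher in cKO TFs (log2 fold change 1.90, 95% interval 1.35 to 2.46, adjusted p = 0.0374 by edgeR). The background was 0.0479% of genes called higher and 0.15% in either direction. At an unadjusted p under 0.05 with the fold change, 4 of 10 factors (*Osr2*, *Runx2*, *Msx2* and *Dlx5*) stood beside 7.57% of genes. The *Osr2* call on summed counts was lost without any one of Ctrl replicates 1, 2 and 3 or cKO replicates 2 and 3 (adjusted p from 0.0599 to 0.132 by edgeR). It was also lost with the replicate block (adjusted p = 0.0856 by edgeR), which matches Ctrl and cKO TFs by a number that was not shown to pair them. The drop in the size of the *Osr2* difference from 20% to 1% O2 was itself tested as an interaction and did not pass (-1.03, 95% interval -2.11 to 0.05, adjusted p = 1.00 by edgeR). In a bulk sample a higher share of cells with a transcript and more transcript per cell cannot be told apart.

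*Osr1* (ENSMUSG00000048387, chr12:9570116-9581500, plus strand), the close relative of *Osr2*, had higher means in cKO TFs at both O2 levels without passing the test. In 20% O2 it was at 43.5, 36.1 and 56.6 CPM in Ctrl TFs and 67.1, 70.6 and 48.8 CPM in cKO TFs, where 1 cKO library fell within the Ctrl range. In 1% O2 the groups did not overlap, with Ctrl TFs at 36.4, 38.04 and 55.0 CPM and cKO TFs at 67.7, 63.9 and 61.0 CPM. Neither difference passed (log2 fold change 0.45, adjusted p = 0.344, and 0.57, adjusted p = 0.237, by edgeR), and both are under the minimum of 1.5-fold.

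*Runx2* (ENSMUSG00000039153, chr17:44495987-44814797, minus strand), the osteoblast factor, had lower values in cKO TFs without overlap at both O2 levels, though edgeR did not call it. In 20% O2 its CPM was 18.6, 19.5 and 20.8 in Ctrl TFs and 13.0, 10.1 and 13.0 in cKO TFs. In 1% O2 it was 14.1, 21.4 and 17 in Ctrl TFs and 11.7, 13.1 and 13.3 in cKO TFs. The 6 cKO libraries thus lay below all 6 untreated Ctrl libraries, with 14.1 CPM the lowest Ctrl value and 13.3 CPM the highest cKO value. Gesicle-treated TFs were at 13.2 to 23.9 CPM in 20% O2, where replicate 3 fell below that highest cKO value. The share of all genes that separate over both O2 levels is not given, and both levels may draw on the same mice. The log2 fold changes were -0.72 in 20% O2 (95% interval -1.09 to -0.34, adjusted p = 0.111 by edgeR) and -0.46 in 1% O2 (-0.84 to -0.09, adjusted p = 0.238). DESeq2 called the difference in 20% O2 (-0.73, adjusted p = 0.00463). Once the GC content and length of genes were fitted as offsets, the values came to -0.46 in 20% O2 and -0.16 in 1% O2.

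*Msx2* (ENSMUSG00000021469, chr13:53466884-53473074, minus strand), a homeobox repressor, was also at lower values in cKO TFs at both O2 levels. In 20% O2 it was at 10.6, 7.5 and 9.43 CPM in Ctrl TFs and 3.8, 6.29 and 4.98 CPM in cKO TFs. In 1% O2 it was at 9.24, 7.74 and 9.43 CPM in Ctrl TFs and 4.83, 6.76 and 5.9 CPM in cKO TFs. Here too no cKO library reached the lowest untreated Ctrl library. Gesicle-treated TFs were at 4.89 to 10.2 CPM in 20% O2, and the lowest of them, replicate 3, lay within the cKO range. The log2 fold change was -0.87 in 20% O2 (95% interval -1.35 to -0.38, adjusted p = 0.138 by edgeR) and -0.58 in 1% O2 (-1.07 to -0.09, adjusted p = 0.248). DESeq2 called it in 20% O2 (-0.88, adjusted p = 0.00713). Summed over both O2 levels, *Runx2* (-0.59, adjusted p = 0.165) and *Msx2* (-0.77, adjusted p = 0.221) were not called by edgeR, while DESeq2 called both (adjusted p = 0.0105 and 0.0233).

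*Dlx5* (ENSMUSG00000029755, chr6:6877805-6882085, minus strand) had few counts, and its mean was lower in cKO TFs without passing the test. It was at 0.911, 1.53 and 1.76 CPM in Ctrl TFs and 0.645, 0.891 and 0.204 CPM in cKO TFs in 20% O2. In 1% O2 Ctrl replicate 1 fell to 0.276 CPM while its fellows were at 1.76 and 1.68 CPM, and cKO TFs were at 0.711, 0.576 and 0.525 CPM. The groups were apart in 20% O2 and overlapped in 1% O2 through that one Ctrl library. With 5 to 73 counts per library the intervals were wide (log2 fold change -1.28, 95% interval -2.66 to 0.10, adjusted p = 0.372 in 20% O2, and -1.08, -2.53 to 0.36, adjusted p = 0.402 in 1% O2, by edgeR).

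None of the remaining factors passed the test, and their genotypes overlapped at both O2 levels. *Sox9* was at 31.9, 33.9 and 20.6 CPM in Ctrl TFs and 26.5, 24.7 and 29.7 CPM in cKO TFs in 20% O2, where the cKO libraries lie inside the Ctrl range (log2 fold change -0.10, 95% interval -0.69 to 0.49). In 1% O2 it was at 50.8, 36.7 and 20.6 CPM in Ctrl TFs and 31.0, 27.5 and 28.7 CPM in cKO TFs (-0.32, -0.91 to 0.28). *Runx1* ranged from 12.6 to 33.5 CPM in 20% O2 with the genotypes overlapping (-0.30, 95% interval -0.97 to 0.36), and from 13.2 to 33.2 CPM in 1% O2 (-0.51, -1.18 to 0.17). *Msx1* gave the narrowest of the intervals that include 0 in 20% O2 (-0.04, 95% interval -0.49 to 0.41), with 5.56 to 5.73 CPM in cKO TFs. *Sox6* was -0.59 in 20% O2 and 0.17 in 1% O2 (log2 fold change), and *Sox5* 0.38 and 0.62, all with intervals that include 0.

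Counted over the list, the groups did not overlap for 4 of 10 factors in 20% O2 (*Osr2* higher and *Runx2*, *Msx2* and *Dlx5* lower), against 21.2% of all genes tested (10.8% higher, 10.3% lower). In 1% O2 they did not overlap for 4 of 10 (*Osr1* and *Osr2* higher, *Runx2* and *Msx2* lower), against 27.3% (12.1% higher, 15.2% lower). The median log2 fold change of the 10 was -0.20 in 20% O2 and -0.07 in 1% O2, beside 0.03 and 0.00 over all genes. Both O2 levels may draw on the same mice, so the second is not an independent repeat of the first.

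**Figure D3:**
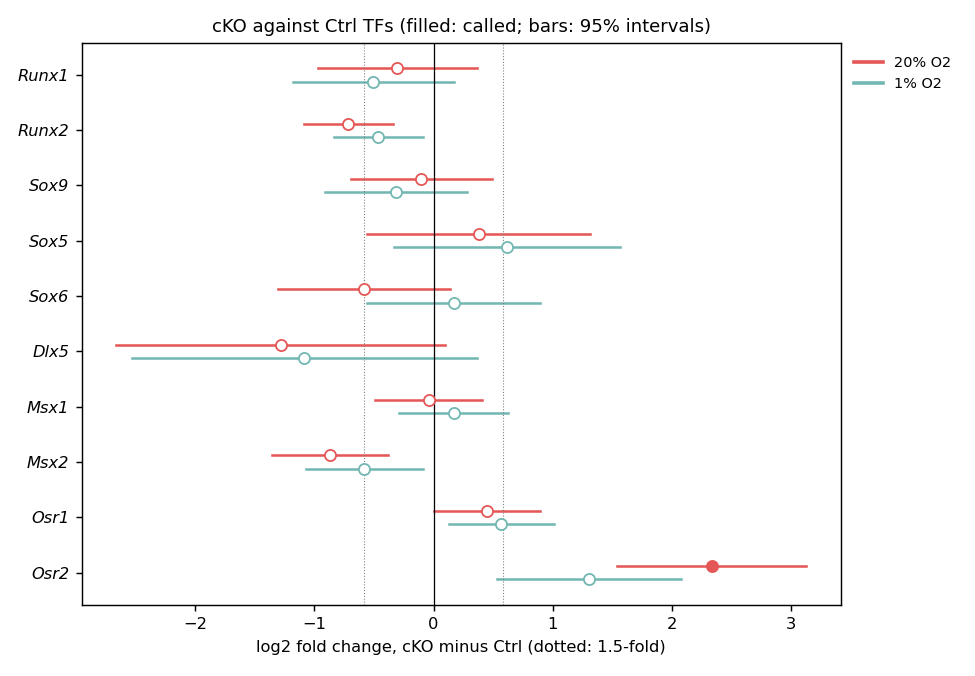
Log2 fold change (x axis, cKO minus Ctrl) of the 10 factors (y axis) in 20% and 1% O2, with 95% intervals from edgeR's fit of 12 libraries; filled points passed the test and dotted lines mark 1.5-fold. *Osr2* in 20% O2 (2.33) is the one filled point, and the intervals of *Runx2* and *Msx2* lie below 0 at both O2 levels.

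The second question was whether 1% O2 changed these factors within one genotype. None of the 10 was called in Ctrl TFs by edgeR, by DESeq2 or at an unadjusted p under 0.05 with the fold change, while 298 of 15850 genes (1.88%) were called and 9.44% had such an unadjusted p. Their log2 fold changes ran from -0.17 to 0.57, and none was without overlap, against 30% of all genes. *Osr2* had the largest value in Ctrl TFs (0.57, 95% interval -0.20 to 1.35): it went from 1.29 to 4.86 CPM in replicate 1, from 3.37 to 4.8 CPM in replicate 2 and from 4.56 to 3.96 CPM in replicate 3. Of the 10 factors, *Runx1* was lower in 1% O2 in 3 of 3 Ctrl replicates (log2 ratios of -0.33, -0.01 and -0.21) and *Sox9* was higher in 3 of 3 (log2 ratios of 0.67, 0.11 and 0.00077), with a fitted value of 0.33 (95% interval -0.26 to 0.92). In gesicle-treated TFs, where pairing by number was not shown, *Sox9* was lower in 3 of 3 (log2 ratios of -0.17, -0.21 and -0.18). There *Osr2* was also lower and *Sox6* higher in 3 of 3. In cKO TFs *Sox5*, *Sox6*, *Msx1* and *Msx2* were higher and *Osr2* was lower in 3 of 3. The share of all genes with 1 direction in 3 of 3 is not given. *Msx2* had log2 ratios of -0.19, 0.05 and 0.00064.

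In cKO TFs none of the 10 factors was called by edgeR, by DESeq2 or at an unadjusted p under 0.05 with the fold change, against 2.1% of genes called and 11.6% with such an unadjusted p. *Msx1* was the one factor without overlap (20.6% of all genes), at 5.56, 5.73 and 5.69 CPM in 20% O2 and 7.39, 5.93 and 6.13 CPM in 1% O2, a log2 fold change of 0.19. The highest of these came from the library with the smallest total. *Sox6* had the highest log2 fold change of the 10 in cKO TFs (1.33, 2.77 and 2.22 CPM in 20% O2, 2.42, 3.8 and 3.48 CPM in 1% O2; 0.64, 95% interval -0.09 to 1.38, adjusted p = 0.313 by edgeR). *Osr2* had the lowest log2 fold change (-0.46, 95% interval -1.21 to 0.30). The interaction of genotype and O2 was called for none of the 10 and for no gene (0% by edgeR; 292 genes, 1.84%, at an unadjusted p under 0.05 with the fold change, 2 genes by DESeq2).

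**Figure D4:**
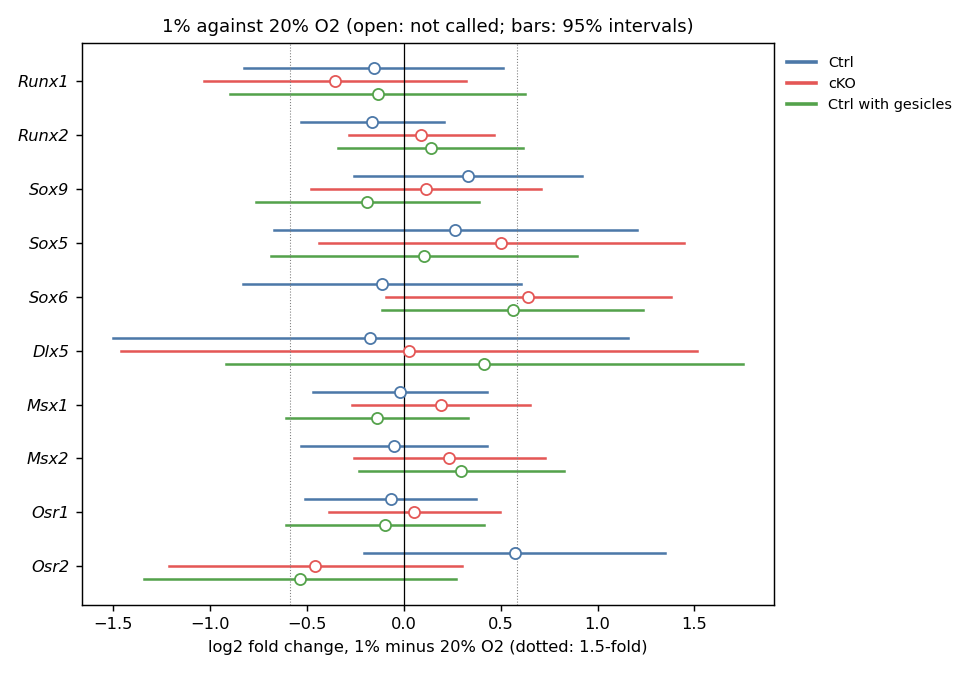
Log2 fold change (x axis, 1% minus 20% O2) of the 10 factors (y axis) in Ctrl, cKO and gesicle-treated Ctrl TFs, with 95% intervals from edgeR; open points did not pass the test. All 30 intervals include 0, and *Osr2* is at 0.57 in Ctrl TFs, -0.46 in cKO TFs and -0.54 in gesicle-treated TFs.

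The third question was whether bringing Cre into Ctrl TFs in culture changed the factors. None was called in 20% O2 (4 of 16174 genes, 0.0247%; 0 factors by DESeq2 and 1 at an unadjusted p under 0.05 with the fold change, beside 2.41% of genes) and none in 1% O2 (0% of genes; 0 factors by DESeq2 and 0 at an unadjusted p, beside 1.45% of genes). No factor was without overlap at either level, against 12.5% and 6.32% of genes. *Osr2* was the factor with the unadjusted difference: in 20% O2 it was at 4.19, 5.95 and 9.54 CPM with gesicles and 1.29, 3.37 and 4.56 CPM without, each replicate number being higher with gesicles. The groups still overlapped, and the log2 fold change was 1.10 (95% interval 0.28 to 1.92, adjusted p = 1.00 by edgeR). In 1% O2 *Osr2* was at 4.06, 3.27 and 6.26 CPM with gesicles and 4.86, 4.8 and 3.96 CPM without, a log2 fold change of 0.00 (-0.81 to 0.81). With gesicles the log2 fold changes in 20% and 1% O2 were -0.20 and 0.10 for *Runx2* and -0.29 and 0.06 for *Msx2*. The 95% intervals were wide, at -0.68 to 0.27 and -0.38 to 0.58 for *Runx2* and -0.82 to 0.24 and -0.47 to 0.59 for *Msx2*. These comparisons share the untreated Ctrl libraries with those of cKO TFs.

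Gesicle-treated TFs moved from 20% to 1% O2 left all 10 factors uncalled as well (edgeR, DESeq2 and unadjusted p with the fold change), against 2.41% of genes called and 9.41% with such an unadjusted p, and none was without overlap, against 24% of genes. The values ran from -0.54 for *Osr2* (95% interval -1.34 to 0.27) to 0.56 for *Sox6* (-0.11 to 1.24). The interaction of gesicles and O2 was not called for any factor or gene (0% by edgeR; 200 genes, 1.24%, at an unadjusted p under 0.05 with the fold change, 0 by DESeq2). Its largest value among the factors was that of *Osr2* (-1.10, 95% interval -2.25 to 0.04).

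In the 4 groups of untreated and gesicle-treated Ctrl TFs, 3 of 10 factors had the same replicate number highest or lowest in every group. *Sox9* was lowest in replicate 3 in all 4, at 20.6, 20.6, 27.7 and 24.5 CPM. *Osr1* was highest in replicate 3 in the same 4 groups, at 56.6, 55.0, 72.6 and 70.2 CPM. *Runx1* was highest in replicate 2 in all 4, at 33.5, 33.2, 32.3 and 32.2 CPM, a narrow band beside the 11.4 to 26.6 CPM of replicates 1 and 3. For *Sox5*, *Dlx5* and *Msx2* no number was highest in more than 2 of the 4 groups. These orders were noticed in the values and are given as a description. The share of all genes with such an order is not given, so they are not a trait shown for these factors.

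Of 30 listed relatives and partners of the factors, 25 were tested and 1 was called. *Dlx2*, a homeobox relative of *Dlx5*, was called lower in cKO TFs in 20% O2, from 7.97 to 15.3 CPM in Ctrl TFs to 4.28 to 5.24 CPM in cKO TFs (log2 fold change -1.25, adjusted p = 0.0447 by edgeR). It was the only call on that list in the 10 comparisons, and its dependence on single libraries is not given. The most abundant of them was *Wwtr1*, the TAZ coactivator, at 270 CPM over 18 libraries. The median log2 fold change of the 25 in cKO TFs was -0.13 in 20% O2 and -0.20 in 1% O2, beside 0.03 and 0.00 for all genes.

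No gene of the cartilage and bone lists was called by edgeR in any of the 10 comparisons. Of 18 chondrocyte genes, 10 were tested in the fit of 12 libraries, 9 stayed under 1 CPM in all libraries, and *Snorc* was at 0 throughout. *Acan*, the aggrecan core protein, reached 0.0232 CPM at most, and *Col2a1*, the cartilage collagen, stayed at 3.68 CPM or less. *Comp*, a matrix protein that tendon also makes, led the list at 488 CPM. The median log2 fold change of the 10 tested was -0.41 in cKO TFs in 20% O2 and -0.44 in 1% O2. Of 18 osteoblast and mineralization genes, 12 were tested, and *Ibsp* and *Mepe* were at 0 throughout. *Spp1*, osteopontin, led that list and varied widely between libraries, from 119 to 1405 CPM in Ctrl TFs in 20% O2 alone. The median log2 fold change of the 12 was -0.22 in cKO TFs in 20% O2 and -0.14 in 1% O2, and in 1% against 20% O2 it was -0.54 in Ctrl TFs and -0.47 in cKO TFs, and -0.21 for the 13 tested in gesicle-treated TFs, beside 0.00, -0.03 and -0.02 for all genes.

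Some tendon, mural and skeletal muscle markers also differed with genotype, while the sums of endothelial, glial and leukocyte markers overlapped between genotypes at both O2 levels. Of 12 tendon markers, 2 were called higher in cKO TFs in 20% O2: *Dcn*, decorin, from 212 to 827 CPM on average (log2 fold change 1.96, adjusted p = 0.0233 by edgeR), and *Lum*, lumican, from 1.15 to 12.5 CPM (3.44, adjusted p = 0.0252). *Dcn* was also called in 1% O2 (2.58, adjusted p = 0.0171). The summed level of the 12 was 10931 to 12897 CPM in Ctrl TFs and 5376 to 10253 CPM in cKO TFs in 20% O2, and in 1% O2 the groups overlapped at 5842 to 13324 and 5661 to 9419 CPM. All 5 mural cell markers were tested; they summed to 96.1 to 163 CPM in Ctrl TFs and 34.5 to 54.4 CPM in cKO TFs in 20% O2, overlapped in 1% O2 at 48.6 to 96.2 and 31.1 to 49.5 CPM, and *Cspg4* was called lower with both O2 levels summed (-1.504, adjusted p = 0.0175 by edgeR). *Acta1*, which leads the skeletal muscle list, was called lower in cKO TFs in 20% O2 (-1.28, adjusted p = 0.0449 by edgeR). Of that list, 4 of 6 genes stayed under 1 CPM in all libraries, and 2 of them were never counted. Its sum in 20% O2 was 24.4 to 47.7 CPM in Ctrl TFs and 12.4 to 17.9 CPM in cKO TFs. *Acta1* alone averaged 30.6 and 12.6 CPM there, the larger part of these sums. In 1% O2 the sums were 26.5 to 35.7 and 18.6 to 24.1 CPM. Of 5 endothelial markers 4 stayed under 1 CPM, and *Tek* led; the sum was 27.9 to 45.5 CPM in Ctrl TFs and 37.2 to 76.6 CPM in cKO TFs in 20% O2, and 11.5 to 27.6 and 16.8 to 39.95 CPM in 1% O2. Glial markers, led by *S100b*, had no call, and summed to 5.33 to 10.6 CPM in Ctrl TFs and 9.64 to 16.3 CPM in cKO TFs in 20% O2 and to 5.8 to 15.7 and 11.3 to 15.7 CPM in 1% O2 (median log2 fold changes of the 3 tested 1.18 and 0.72). Leukocyte markers, led by *Cd14*, had no call either, at 7.88 to 11.6 CPM in Ctrl TFs and 10.9 to 16.8 CPM in cKO TFs in 20% O2. In 1% O2 they were at 10.1 to 17.9 and 12.5 to 16.2 CPM. With O2 levels summed, no gene was called without any one of Ctrl replicates 1, 2 and 3. The replicate block also left no gene called there, so *Cspg4* lost its call in each of these settings. A fit of only the groups compared left 1 gene called in 20% O2 and none in 1% O2. At most 1 of *Dlx2*, *Acta1*, *Dcn* and *Lum* thus kept its call in 20% O2, and *Dcn* lost that in 1% O2. The part of any such marker difference in the values of *Osr2*, *Runx2* and *Msx2* was not tested. Outside the genotype comparisons, *Kdr* was called lower and *Rgs5* higher in 1% O2 in gesicle-treated TFs.

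The genes whose log2 CPM was most alike to each factor over the 18 libraries were picked by Pearson's r, as a description of points that share groups, replicate numbers and library depth. *Runx1* had *Six4* (r = 0.97) and *Pcdhgb2* (0.96), *Osr1* had *Ackr3* (0.96) and *Tbxa2r* (0.87), and *Msx2* had *Prrx2* (0.91) and *Acta1* (0.89). *Sox5* had *Ufm1* (0.89) and *Lyrm4* (0.86), *Osr2* had *Pla1a* (0.89) and *Rab3il1* (0.89), and *Runx2* had *Fam160a1* (0.88) and *Ttc7* (0.88). *Dlx5* was nearest to its relative *Dlx3* (0.86), *Sox6* to *Cdsn* (0.86) and *Slc27a1* (0.81), *Sox9* to *Rpa1* (0.84) and *Esco2* (0.82), and *Msx1* to *Rmi1* (0.74) and *Ppp1r2* (0.74). In Ctrl TFs in 1% O2, where *Dlx5* was at 0.276 CPM in 1 library, *Dlx3* was at 3.12 CPM in its lowest library and at 17.7 and 18.8 CPM in the others.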

How the data were processed

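Poly-A RNA of mouse tail TFs was sequenced as 151 bp read pairs (18 libraries, 3 per group). The authors trimmed the reads, aligned them to GRCm38 with STAR and estimated expected counts per gene with RSEM 1.3.3; they deposited these estimated counts as whole numbers without normalization, in 55491 rows of which 4 are transgenes. The strand setting is not given in the sources used here. The labels give 10% serum and the paper 1%. A chi-square test of counts gave at least 14.1 per degree of freedom for each pair of libraries, so none was a copy.

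The counts were tested with edgeR 4.0.16 (TMM factors, filterByExpr, quasi-likelihood test with a term for each group) under R 4.3.3, in a fit of 12 libraries for Ctrl and cKO TFs (15850 genes), of 18 libraries for gesicle groups (16174 genes) and of 6 sums over both O2 levels (16715 genes). A call needed a p, adjusted by Benjamini-Hochberg, under 0.05 with a change of at least 1.5-fold; CPM are TMM-normalized. Exon lengths and positions came from GENCODE M21 and promoters from RefSeq (GRCm38.p6); *Sox9*, *Dlx5*, *Osr1* and *Osr2* had no entry there. Likeness used log2 CPM with a prior count of 2. One gene picked by likeness is not reported here. Estimated counts cannot separate overlapping antisense transcripts.

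Replicate numbers paired Ctrl TFs at 20% and 1% O2 (correlations of deviations 0.271, 0.30 and 0.458), Ctrl and gesicle-treated TFs in 20% O2 (0.346 to 0.462) and in 1% O2 (0.193 to 0.284); the pairing comes from the data, since the labels give only a number. In cKO TFs the correlations of same numbers between 20% and 1% O2 were positive (0.0956, 0.0921 and 0.368). Their mean was 0.185, against -0.0873 for different numbers, so pairing was neither shown nor excluded. In gesicle-treated TFs the lowest was -0.00612 (mean 0.0837), and pairing was not shown. Between Ctrl and cKO TFs the mean for same numbers was -0.0978 in 20% O2 and 0.104 in 1% O2. For different numbers it was 0.0492 and -0.0515, so pairing of the genotypes was not shown. The sums over both O2 levels took a number as 1 mouse in cKO TFs too, which is not established.

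The members and gene lists were chosen with earlier results of these data known. All 10 factors are named in every comparison; of the other lists the called genes and the most abundant gene are named, with defining cell type genes at or near 0, *Scx* and *Col2a1* added after values were seen. Alternatives were DESeq2 1.42.0, RLE factors, other filters, the replicate block, other sets of libraries, GC and length offsets (splines with 4 degrees of freedom), unadjusted p, no fold minimum, each library left out, and sex as a factor (added later). In simulated data for 1% against 20% O2 in Ctrl TFs (15605 genes), edgeR found 33 of 100 genes changed 2-fold and 94 of 100 changed 4-fold.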

Additional observations from a re-analysis of the deposited data

Results flagged for a closer look

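Transgene sequences listed beside the mouse genes took no part in the comparisons. Counts of the *cre* sequence summed to 15 over the 6 cKO libraries and those of the *egfp* sequence to 14, with 0 in every library of Ctrl and gesicle-treated TFs. Counts of the *tdtomato* sequence summed to 8 over the 6 gesicle-treated libraries, with 0 in the other libraries. These are single reads to a few reads per library (at most 5), and the cKO library with the smallest total in 1% O2 had 0 of *cre* and 0 of *egfp*. With 3 libraries a group, no test for an outlying library was made.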

How the results depend on the processing

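Directions and calls of the factors were recomputed under each alternative, and the causes of the changes were not tested. *Osr2* kept its direction in cKO TFs under all alternatives run at both O2 levels and with them summed; the settings that ended its call are given above. *Runx2* and *Msx2* kept theirs as well and were called in 20% O2 by DESeq2 (whether blocked or not) and at an unadjusted p, and with O2 levels summed by DESeq2 and as an average in the fit of 12 libraries. In the comparisons where replicate numbers paired the libraries the block changed no call of a factor. In the summed comparison it ended that of *Osr2* (1.88 with the replicate block, adjusted p = 0.0856 by edgeR). Wherever cKO was compared with Ctrl TFs, the block used numbers that were not shown to pair the 2 genotypes, so its results there are given without a reading either way. Where an arm was left with fewer libraries, the fit shared its spread with the other groups. Depth limits *Sox5* and *Dlx5* most, with counts as low as 7 and 5 in a library.

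For O2 in Ctrl TFs the 298 genes called became 696 with DESeq2, 962 with DESeq2 and the replicate block, 471 with GC and length offsets, 683 with GC and length offsets and the replicate block and 1497 at an unadjusted p, and 116 to 261 without one library. For O2 in cKO TFs the 333 genes called became 892 with DESeq2, 1076 with DESeq2 and the replicate block, 511 without a filter on low counts, 84 in a fit of the groups compared, 818 with GC and length offsets and the replicate block and 1845 at an unadjusted p, and 97 to 1374 without one library. For genotype in 20% O2 the 55 genes called became 443 with DESeq2, 473 with DESeq2 and the replicate block, 281 without a filter on low counts, 1 in a fit of the groups compared, 87 in a fit of all 18 libraries, 118 with GC and length offsets, 128 with GC and length offsets and the replicate block and 1352 at an unadjusted p, and 1 to 154 without one library. Factors called there went from 1 to 3 with DESeq2, 3 with DESeq2 and the replicate block, 0 in a fit of the groups compared and 3 at an unadjusted p, and were 0 to 1 without one library. For genotype in 1% O2 the 6 genes called became 302 with DESeq2, 291 with DESeq2 and the replicate block, 111 without a filter on low counts, 2 with the replicate block, 0 in a fit of the groups compared, 14 in a fit of all 18 libraries, 12 with GC and length offsets, 16 with GC and length offsets and the replicate block, 1549 at an unadjusted p and 15 with sex as a factor, and 0 to 6 without one library. Factors called there went from 0 to 1 with DESeq2, 1 with DESeq2 and the replicate block and 1 at an unadjusted p. For the genotype interaction the 0 genes called became 2 with DESeq2, 5 with DESeq2 and the replicate block and 292 at an unadjusted p, and 0 to 1 without one library. For gesicles in 20% O2 the 4 genes called became 46 with DESeq2, 62 with DESeq2 and the replicate block, 23 without a filter on low counts, 1 in a fit of the groups compared and 390 at an unadjusted p, and 0 to 2 without one library. Factors called there went from 0 to 1 at an unadjusted p. For gesicles in 1% O2 the 0 genes called became 3 with DESeq2 and the replicate block and 235 at an unadjusted p. For O2 in gesicle-treated TFs the 390 genes called became 732 with DESeq2, 1009 with DESeq2 and the replicate block, 120 in a fit of the groups compared, 719 with GC and length offsets and the replicate block and 1522 at an unadjusted p, and 148 to 346 without one library. For the gesicle interaction the 0 genes called became 1 with DESeq2 and the replicate block, 1 in a fit of the groups compared and 200 at an unadjusted p. For genotype with O2 levels summed the 25 genes called became 527 with DESeq2, 599 as an average in the fit of 12 libraries, 354 without a filter on low counts and 0 with the replicate block, and 0 to 162 without one library. Factors called there went from 1 to 3 with DESeq2, 3 as an average in the fit of 12 libraries and 0 with the replicate block, and were 0 to 1 without one library.

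The sign turned for O2 in Ctrl TFs in *Runx1* (0.0655 with GC and length offsets), *Runx2* (0.0168 with GC and length offsets), *Sox6* (0.13 with GC and length offsets), *Runx1* (0.0687 with GC and length offsets and the replicate block), *Runx2* (0.0126 with GC and length offsets and the replicate block) and *Sox6* (0.15 with GC and length offsets and the replicate block). O2 in Ctrl TFs had log2 fold changes that crossed 0 without one library in *Runx1* -0.43 to 0.0115, *Sox9* -0.00177 to 0.60, *Sox5* -0.13 to 0.50, *Sox6* -0.39 to 0.0607, *Dlx5* -0.51 to 0.30, *Msx1* -0.26 to 0.0858, *Msx2* -0.17 to 0.0633 and *Osr1* -0.29 to 0.12. The sign turned for O2 in cKO TFs in *Dlx5* (-0.00859 with a filter of CPM above 1 in 3 libraries). O2 in cKO TFs had log2 fold changes that crossed 0 without one library in *Runx2* -0.00573 to 0.16, *Dlx5* -0.39 to 0.53 and *Osr1* -0.0935 to 0.17. The sign turned for genotype in 20% O2 in *Msx1* (0.038 with sex as a factor). Genotype in 20% O2 had log2 fold changes that crossed 0 without one library in *Sox9* -0.30 to 0.0324, *Sox5* -0.0141 to 0.53 and *Msx1* -0.12 to 0.0561. Genotype in 1% O2 had log2 fold changes that crossed 0 without one library in *Sox9* -0.59 to 0.011 and *Sox6* -0.00521 to 0.44. The genotype interaction had log2 fold changes that crossed 0 without one library in *Runx1* -0.46 to 0.13, *Sox9* -0.48 to 0.12, *Dlx5* -0.27 to 0.71 and *Osr1* -0.0679 to 0.35. The sign turned for gesicles in 20% O2 in *Runx1* (0.00677 with GC and length offsets), *Sox5* (0.0237 with GC and length offsets), *Runx1* (0.0116 with GC and length offsets and the replicate block) and *Sox5* (0.0148 with GC and length offsets and the replicate block). Gesicles in 20% O2 had log2 fold changes that crossed 0 without one library in *Runx1* -0.31 to 0.0455 and *Dlx5* -0.60 to 0.0456. The sign turned for gesicles in 1% O2 in *Osr2* (0.00031 with DESeq2), *Osr2* (0.000587 with RLE factors), *Osr2* (0.0149 without a filter on low counts) and *Msx1* (-0.00274 with GC and length offsets and the replicate block). Gesicles in 1% O2 had log2 fold changes that crossed 0 without one library in *Runx1* -0.37 to 0.25, *Runx2* -0.073 to 0.28, *Sox9* -0.43 to 0.19, *Sox5* -0.49 to 0.14, *Dlx5* -0.10 to 0.79, *Msx1* -0.23 to 0.30, *Msx2* -0.0111 to 0.21 and *Osr2* -0.31 to 0.21. O2 in gesicle-treated TFs had log2 fold changes that crossed 0 without one library in *Runx1* -0.45 to 0.17, *Runx2* -0.0652 to 0.46, *Msx1* -0.44 to 0.0648 and *Osr1* -0.36 to 0.10. The sign turned for the gesicle interaction in *Runx1* (-0.0411 with DESeq2 and the replicate block), *Runx1* (-0.0463 with the replicate block), *Runx1* (-0.0769 with GC and length offsets) and *Runx1* (-0.12 with GC and length offsets and the replicate block). The gesicle interaction had log2 fold changes that crossed 0 without one library in *Runx1* -0.25 to 0.37, *Sox5* -0.36 to 0.26, *Msx1* -0.38 to 0.15 and *Osr1* -0.25 to 0.22. Genotype with O2 levels summed had log2 fold changes that crossed 0 without one library in *Msx1* -0.0799 to 0.19.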
